A study of Homo sapiens with 14 samples.

Results

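The 10 genes described here encode G protein-coupled receptors of the pancreatic islet and were chosen by name: GLP1R, GIPR, GCGR, GPR119, FFAR1, GPR39, CASR, SSTR2, SSTR3 and ADRA2A. All 10 were found by symbol among the 60624 Ensembl gene identifiers listed for each library. Their expression was measured by bulk RNA sequencing in 14 libraries of 9 groups, given as TPM, a transcript abundance scaled for gene length and library. All cells came from MEL1, a human embryonic stem cell line in which the study used a green fluorescent reporter at the INS locus, so every group shared 1 genetic background.

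The groups hPSC (undifferentiated stem cells kept on CF1 feeder cells), DE (definitive endoderm), PP2 (pancreatic progenitors from stepwise differentiation) and SC-β (insulin-expressing, β-like cells differentiated from hPSCs with no expansion step) formed batch 1, with 1 library per group. Expandable pancreatic progenitors (ePPs) were sequenced at passage 9 (ePP-P9) and passage 21 (ePP-P21), and ePP-β were the β-like cells derived from ePPs. These 3 groups had 2 libraries each and formed batch 2. ePPs were grown on feeder cells in a medium with EGF, bFGF, the TGFβ receptor inhibitor 616452 and 1 μM I-BET151, which blocks the bromodomains of BET proteins. The passage of the ePPs that gave the ePP-β libraries was not given in the sources used here. DMSO and I-BET151 were hPSC-derived progenitors kept for 7 days with solvent or with 1 μM I-BET151, had 2 libraries each and formed batch 3. The media of the β differentiation held zinc sulfate, and the first of them forskolin, which activates adenylyl cyclase. Nothing in the labels says whether 2 libraries of a group came from separate cultures, so the p-values below measure the spread between these libraries, which may be technical.

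As background, islet hormone secretion is set by glucose and tuned by receptors at the cell surface. GLP1R, GIPR, GCGR and GPR119 act mainly through Gs, which activates adenylyl cyclase and raises cAMP, and cAMP strengthens insulin release once glucose is high. FFAR1 acts mainly through Gq and phospholipase C, which releases stored calcium, and the zinc receptor GPR39 and the calcium-sensing receptor CASR also use Gq. SSTR2, SSTR3 and ADRA2A act through Gi, which lowers cAMP and opens potassium channels, and restrain secretion.

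The upstream sequences of 4 members are shown because their values carry the results: GPR39, the member that passed the test with I-BET151, GPR119 and FFAR1, near or at 0 in ePPs, and SSTR2, the member with the second highest level in β-like cells. RefSeq promoters (GRCh38.p14) matched all 10 members, and the 250 bases before the annotated start are printed. GPR39 lies at chr2:132416555-132416804 on the plus strand, GPR119 at chrX:130385675-130385924 on the minus strand, FFAR1 at chr19:35347652-35347901 and SSTR2 at chr17:73164760-73165009, both on the plus strand. Capitals mark TTAATNATT (in GPR39, found on both strands in overlapping copies), CAGCTG (GPR39) and TGACG (FFAR1 and SSTR2).
GPR39: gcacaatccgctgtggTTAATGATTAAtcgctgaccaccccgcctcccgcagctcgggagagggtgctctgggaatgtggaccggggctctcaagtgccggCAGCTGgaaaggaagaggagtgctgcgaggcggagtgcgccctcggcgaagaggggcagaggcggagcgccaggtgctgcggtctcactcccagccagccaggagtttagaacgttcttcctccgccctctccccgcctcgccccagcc
GPR119: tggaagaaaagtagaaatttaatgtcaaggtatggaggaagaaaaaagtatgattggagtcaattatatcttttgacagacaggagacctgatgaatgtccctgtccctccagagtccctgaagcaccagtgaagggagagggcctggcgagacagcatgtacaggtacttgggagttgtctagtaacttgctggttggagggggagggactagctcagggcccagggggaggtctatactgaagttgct
FFAR1: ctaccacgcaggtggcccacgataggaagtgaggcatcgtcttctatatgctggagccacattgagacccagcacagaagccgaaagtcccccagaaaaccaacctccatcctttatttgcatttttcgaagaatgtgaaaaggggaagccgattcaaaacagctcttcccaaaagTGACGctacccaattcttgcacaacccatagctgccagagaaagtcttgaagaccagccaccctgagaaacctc
SSTR2: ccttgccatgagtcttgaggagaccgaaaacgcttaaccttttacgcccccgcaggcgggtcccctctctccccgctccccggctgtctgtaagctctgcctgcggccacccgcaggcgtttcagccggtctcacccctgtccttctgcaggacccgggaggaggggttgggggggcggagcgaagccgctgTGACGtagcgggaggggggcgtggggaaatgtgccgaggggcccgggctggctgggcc

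Both strands of windows from 250 bases before to 50 after the start were searched for the cAMP response element TGACGTCA and its core TGACG, the E-boxes CAGATG and CAGCTG, the forkhead motif TGTTTAC and the homeodomain motif TAATTA. The core TGACG, which TGACGTCA also contains, was in 24.6% of 35116 promoters and in 3 of the members, beginning 69 bases before the start of ADRA2A, 58 before SSTR2 and 74 before FFAR1. CAGCTG was in 17.9% of promoters and began 149 bases before GPR39, and CAGATG was in 14.7% and began 28 bases after the start of SSTR3. The other 3 letter strings, TGACGTCA (1.85% of promoters), TGTTTAC (3.42%) and TAATTA (4.84%), were in no member's window. TTAATNATT, an HNF1-type core that was searched only after the GPR39 sequence had been seen, was in 1.31% of promoters and began 234 bases before GPR39. These matches are descriptions of the letters.

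The library labels were checked against markers. Of 13 β cell markers, 12 reached 1 TPM in each ePP-β library and in SC-β, with INS at 10916 and 17374 TPM in ePP-β and 20658 TPM in SC-β. All 10 α cell markers also reached 1 TPM in these 3 libraries, and their sum was 28795 and 30353 TPM in ePP-β and 100697 TPM in SC-β. All 7 enterochromaffin cell markers, a list that holds ADRA2A, summed to 1050 and 1132 TPM in ePP-β and 544 TPM in SC-β. In the ePP libraries INS was at or below 0.0104 TPM and GCG was listed at 0. Between 14982 and 17578 genes reached 1 TPM per library. TPM values keep no sequencing depth, so the depth is unknown, and a value of exactly 0 is given only as listed at 0, since each of the 37 mitochondrial-genome genes had a 0 in all 14 libraries.

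The summed level of the 10 receptors was lowest in progenitors with I-BET151 in the medium and highest in the β-like cells. It was 5.94 and 7.35 TPM in ePP-P9, 8.495 and 11.2 TPM at passage 21, and 182.8 and 184.8 TPM in ePP-β. The sum was 175.1 TPM in SC-β, 56.0 in PP2, 17.4 in DE and 14.8 in hPSC. In batch 3 it was 37.6 and 26.1 TPM with DMSO, and 5.96 and 8.16 TPM with I-BET151. In bulk RNA, fewer cells of a type and less RNA per cell cannot be told apart, here and below. Of the 10 members, 7 had their highest value among the 14 libraries in an ePP-β or SC-β library, while GIPR, GCGR and GPR39 were highest in PP2.

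**Figure D1:**
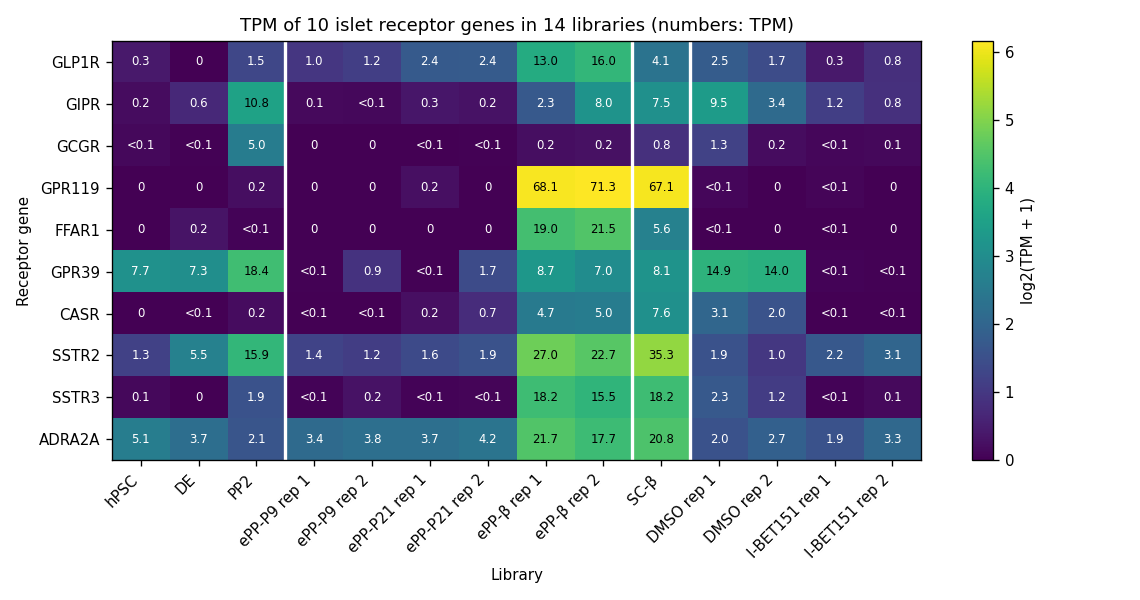
Levels of the 10 receptor genes (rows) in the 14 libraries (columns, white lines separate neighbouring blocks of batches 1, 2, 1 and 3). Colour gives log2(TPM + 1) and the number in each cell the TPM; GPR119 stands at 67.1 to 71.3 TPM in the 3 β-like libraries and at or below 0.198 TPM in the other 11.

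The first comparison asked how receptor expression differed between ePPs and the β-like cells made from them, all in batch 2. Every member with a test was higher in ePP-β than in ePPs, where the ePP level is the mean of the passage 9 and passage 21 means. limma was fitted to log2(TPM + 1) of the 18076 genes that reached 1 TPM in at least 2 of these 6 libraries, and a gene was called when its adjusted p was under 0.05 and its log2 difference beyond 1. Over all tested genes 17.9% were called higher and 9.86% lower, so that 64.5% of calls were higher, against 47.5% under quantile normalization (2592 higher and 2866 lower). Of the 10 members, 9 were tested and called higher, and GCGR was not tested. GIPR, FFAR1, GPR119, GPR39, SSTR3 and CASR passed the filter only through their ePP-β values and so had to differ, and the count of 9 is therefore no support beyond the values of each gene. GLP1R, SSTR2 and ADRA2A had reached 1 TPM in at least 2 of the 4 ePP libraries by themselves.

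GLP1R, the receptor for the incretin GLP-1 (ENSG00000112164, chr6:39048781-39091303, plus strand, GENCODE 44 on GRCh38 as for all members), rose between ePPs and ePP-β. Its level was 0.979 and 1.20 TPM in ePP-P9, 2.36 and 2.42 TPM at passage 21, and 13.0 and 16.0 TPM in ePP-β. No ePP-β library overlapped an ePP library, and the log2(TPM + 1) difference was 2.53 (SE 0.16, adjusted p = 7.86e-05). SC-β stood at 4.14 TPM, below both ePP-β libraries and next in the order of groups, followed by ePP-P21, DMSO at 2.48 and 1.71, PP2 at 1.49, ePP-P9, I-BET151 at 0.340 and 0.784, hPSC at 0.331 and DE, listed at 0. DMSO and ePP-P21 overlapped in this order.

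GIPR, the receptor for the other incretin, GIP (ENSG00000010310, chr19:45668221-45683722, plus strand), had ePP-β replicates that differed more than those of any other member on the log2(TPM + 1) scale. Its level was 0.122 and 0.0992 TPM in ePP-P9, 0.292 and 0.226 TPM at passage 21, and 2.31 and 7.99 TPM in ePP-β. The groups did not overlap and the log2(TPM + 1) difference was 2.21 (SE 0.39, adjusted p = 0.00395). The level in ePP-β was not the highest of the series, since PP2 stood at 10.8 TPM, SC-β at 7.55 TPM and DMSO at 9.54 and 3.38 TPM, and SC-β lay between the libraries of DMSO as well as between those of ePP-β. A microRNA gene on each strand, MIR642A and MIR642B, lies inside GIPR and was at or below 0.377 TPM in every library.

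GCGR, the glucagon receptor (ENSG00000215644, chr17:81804132-81814008, plus strand), stayed under 1 TPM in β-like cells of both origins. Its level was 0.175 and 0.208 TPM in ePP-β and 0.820 TPM in SC-β, and in the ePPs it was listed at 0 in both ePP-P9 libraries and at 0.0102 and 0.0219 TPM at passage 21. PP2 held the highest value, 5.03 TPM, and DMSO had 1.32 and 0.151 TPM. GCG, the gene of the ligand's precursor, was at 14107 and 13360 TPM in the ePP-β libraries and at 74281 TPM in SC-β.

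GPR119, a receptor for oleoylethanolamide and related lipids (ENSG00000147262, chrX:130379449-130385674, minus strand), was the most abundant member in β-like cells and had the largest log2 difference among the members with a value above 0 in ePPs. It was listed at 0 in 3 of the 4 ePP libraries and at 0.198 TPM at passage 21 replicate 1, and reached 68.1 and 71.3 TPM in ePP-β. The log2(TPM + 1) difference was 6.08 (SE 0.16, adjusted p = 5.42e-06). SC-β had 67.1 TPM, and no library outside the β-like cells exceeded 0.198 TPM.

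FFAR1, the long-chain fatty acid receptor also named GPR40 (ENSG00000126266, chr19:35347902-35353864, plus strand), was listed at 0 in all 4 ePP libraries and stood at 19.0 and 21.5 TPM in ePP-β. No fold is given against values of 0, and the adjusted p was 9.98e-06. SC-β had 5.603 TPM, and the remaining libraries lay at or below 0.248 TPM, the value in DE. FFAR1 and GPR119 thus shared a pattern of near absence outside the β-like libraries, but SC-β lay close to ePP-β for GPR119 and below it for FFAR1.

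GPR39, a zinc-sensing receptor (ENSG00000183840, chr2:132416805-132646582, plus strand), was not low in every progenitor. Levels were 0.0309 and 0.885 TPM in ePP-P9 and 0.0194 and 1.68 TPM at passage 21, so that the replicates of either passage differed more than the passages. In ePP-β it was at 8.68 and 6.96 TPM, above every ePP library, with a log2(TPM + 1) difference of 2.53 (SE 0.44, adjusted p = 0.0039). Stem cells and endoderm already held similar levels, 7.68 TPM in hPSC and 7.29 TPM in DE, SC-β had 8.07 TPM, and PP2 was highest at 18.4 TPM. SC-β lay between the ePP-β libraries, and hPSC and DE lay within their range.

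CASR, which senses extracellular calcium (ENSG00000036828, chr3:122183668-122291629, plus strand), had 0.00234 and 0.00474 TPM in ePP-P9, 0.197 and 0.724 TPM at passage 21, and 4.74 and 4.99 TPM in ePP-β. The log2(TPM + 1) difference between ePP-β and ePP was 2.29 (SE 0.19, adjusted p = 0.000193). SC-β had the highest value, 7.59 TPM. DMSO progenitors came next after the β-like cells with 3.14 and 2.00 TPM, while PP2 had 0.156 TPM.

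SSTR2, a somatostatin receptor (ENSG00000180616, chr17:73165010-73176633, plus strand), was the second most abundant member in β-like cells. Its TPM were 1.35 and 1.16 in ePP-P9, 1.63 and 1.92 in ePP-P21, and 27.0 and 22.7 in ePP-β, and the log2(TPM + 1) difference was 3.36 (SE 0.16, adjusted p = 2.79e-05). SC-β had 35.3 TPM, PP2 15.9 TPM and DE 5.51 TPM. An unnamed long noncoding RNA gene, ENSG00000264860, covers SSTR2 on the same strand over 11624 bases and was at 24.0 and 19.3 TPM in ePP-β, so reads may have been divided between the 2 genes and the SSTR2 level is uncertain.

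SSTR3, another somatostatin receptor (ENSG00000278195, chr22:37204237-37212477, minus strand), was at or below 0.230 TPM in the 4 ePP libraries and at 18.2 and 15.5 TPM in ePP-β. The log2(TPM + 1) difference was 4.03 (SE 0.16, adjusted p = 1.65e-05). SC-β, with 18.2 TPM, lay between the ePP-β libraries. PP2 had 1.92 TPM and DMSO 2.30 and 1.15 TPM.

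ADRA2A, the α2A adrenergic receptor (ENSG00000150594, chr10:111077029-111080907, plus strand), was the most abundant member in ePPs and the one with the smallest log2 difference of those called. ADRA2A had 3.41 and 3.77 TPM in ePP-P9, 3.74 and 4.201 TPM at passage 21, and 21.7 and 17.7 TPM in ePP-β, and the log2(TPM + 1) difference was 2.11 (SE 0.15, adjusted p = 0.000119). SC-β had 20.8 TPM. Its level was also measurable before pancreatic stages, at 5.11 TPM in hPSC and 3.67 TPM in DE. ePP-P9 overlapped ePP-P21, and DE lay between the ePP-P9 libraries.

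**Figure D2:**
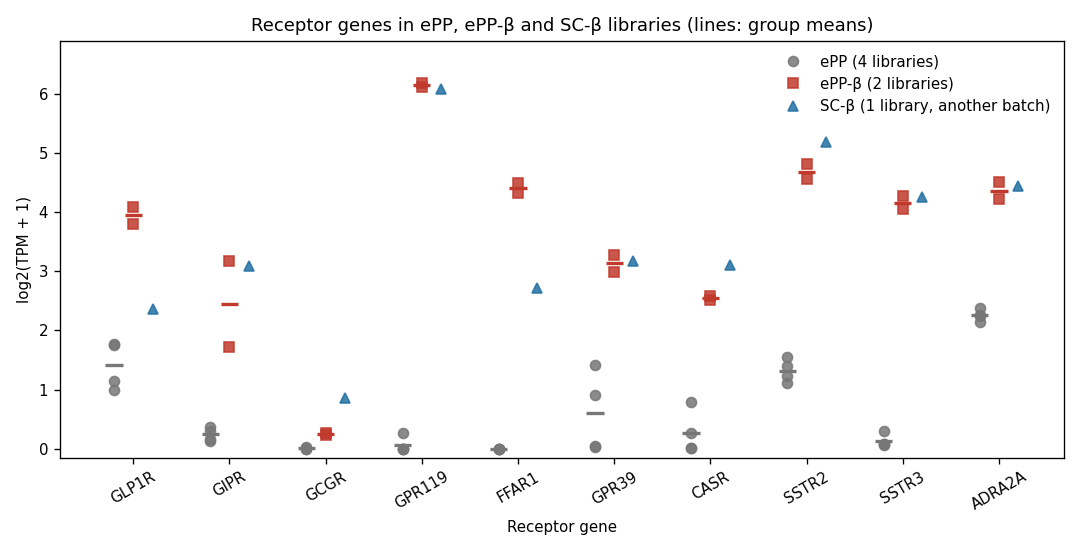
Levels of each receptor gene on the log2(TPM + 1) axis in the 4 ePP libraries (grey circles), the 2 ePP-β libraries (red squares) and the SC-β library (blue triangles), with short lines for group means. For the 9 called genes both red squares lie above all 4 grey circles, and for GLP1R and FFAR1 they lie over 1 log2 unit above the blue triangle.

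**Figure D3:**
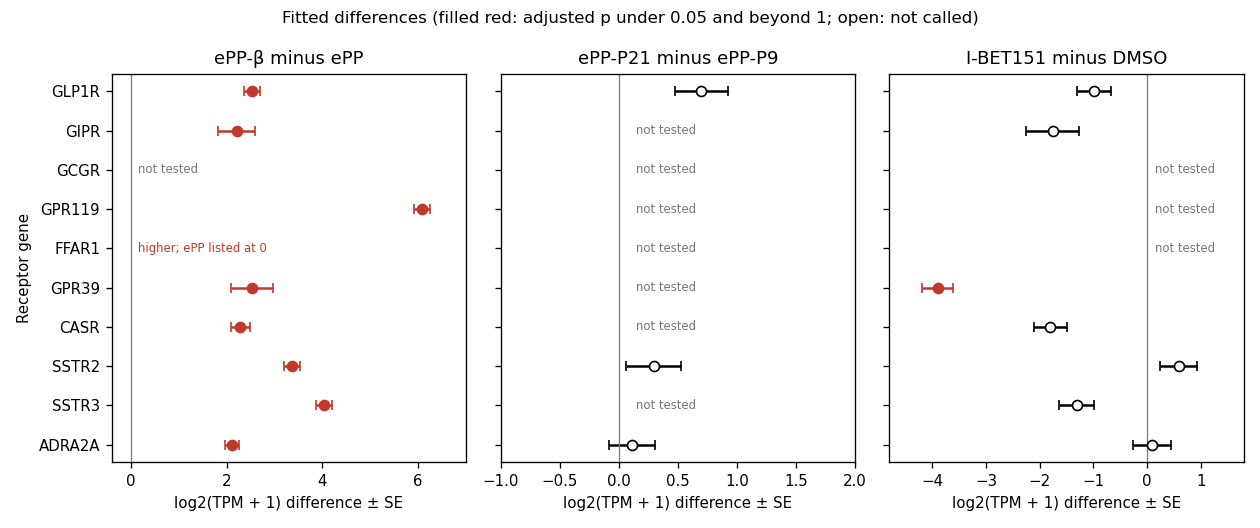
Fitted log2(TPM + 1) differences of the receptor genes with their SE in 3 comparisons, where filled red points were called and open points were not; FFAR1, called higher in ePP-β, has no point because its ePP values were listed at 0. The ePP-β differences run from 2.11 for ADRA2A to 6.08 for GPR119, and with I-BET151 GPR39 alone among the members was called.

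Set beside SC-β, ePP-β had higher GLP1R and FFAR1 values, and the other 8 receptors did not differ by over 1 on the log2(TPM + 1) scale in both ePP-β libraries. No test was made, because SC-β was 1 library of another batch, so that cell origin and batch cannot be told apart. By the same count 13.7% of 20582 genes were higher in ePP-β and 13.2% lower, so most genes were within it and nothing about the receptors is read from their number. The difference was 1.44 and 1.73 for GLP1R, and 1.60 and 1.77 for FFAR1. GIPR, GPR39, SSTR3 and ADRA2A had SC-β between the ePP-β libraries, although for GIPR 1 of these was lower than SC-β by over that limit (differences of -1.37 and 0.07). GPR119 differed by 0.02 and 0.09. SC-β was above both ePP-β libraries for GCGR, SSTR2 and CASR, by up to 0.63, 0.61 and 0.58. Markers of other cell types differed between these libraries as well. Beside the α marker sum, higher in SC-β, and the enterochromaffin sum, higher in ePP-β, as given above, the sum of 7 mesenchyme markers was 2828 TPM in SC-β against 505 and 546 TPM in ePP-β, and that of 7 δ cell markers 2843 TPM against 449 and 516 TPM. Of the mesenchyme markers 7 reached 1 TPM in SC-β and 6 in each ePP-β library, and of the δ cell markers 5 did in each of the 3 libraries. SST alone gave 2757 TPM of the δ sum in SC-β. Some genes went against the sum of their list. VIM was at 248 TPM in SC-β against 454 and 507 TPM in ePP-β. DPP4 (34.6 against 319 and 326 TPM), TM4SF4 (219 against 454 and 450), BCHE (2.69 against 12.9 and 14.2) and PRG4 (under 0.2 TPM in all 3) were also lower in SC-β, and CXCL14 was higher (15.9 against 9.62 and 8.22). The part of these other cell types in the receptor values was not tested.

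SC-β was also set beside PP2, the progenitor stage of the same batch, with 1 library each and no replicate check. Of the members, 7 were higher in SC-β by over 1 on the log2(TPM + 1) scale, where 10.7% of genes were, and 2 were lower, where 19.8% were. The members were chosen with earlier results of these data known, so nothing about the receptors is read from these counts. GPR119 had the largest difference, 5.86, followed by CASR at 2.89, ADRA2A at 2.82, SSTR3 at 2.71 and FFAR1 at 2.67. SSTR2 differed by 1.10 and GLP1R by 1.04. GCGR was lower by this count, with a difference of -1.73, and so was GPR39, with -1.10, while GIPR differed by -0.47. Markers of other cells were present in PP2, with 4 of 4 endothelial markers at or above 1 TPM and a sum of 64.5 TPM against 3.32 TPM in SC-β, and their part was not tested.

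Long culture of ePPs, passage 21 against passage 9, was compared next. Of the 15822 genes tested 1.07% were called higher and 0.0569% lower, which was 94.9% higher among calls, and quantile normalization left 10 higher and 3 lower (76.9%). Only GLP1R, SSTR2 and ADRA2A passed the filter on low values, and limma called 0 of the 3, with 1 at an unadjusted p under 0.05. Over all tested genes 23% had such a p. GLP1R was higher in both passage 21 libraries than in both passage 9 libraries, with a log2(TPM + 1) difference of 0.70 (SE 0.23, adjusted p = 0.153). For SSTR2 the difference was 0.30 (adjusted p = 0.502) and for ADRA2A 0.11 (adjusted p = 0.78), and the latter turned to -0.092 with median centring and -0.14 with quantile normalization. CASR, untested, had 0.197 and 0.724 TPM at passage 21 and under 0.01 TPM at passage 9.

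The last comparison asked what I-BET151 did to receptor expression in progenitors, within batch 3. BET proteins bind acetylated histones and help transcription, and their inhibitor was the compound that the study used to expand progenitors. GPR39 was at 14.9 and 13.98 TPM with DMSO and at 0.0371 and 0.0280 TPM with I-BET151. It passed the filter only through its DMSO values and so had to be lower with I-BET151. Its p and rank are therefore no support beyond these values. It fell by 3.90 on the log2(TPM + 1) scale (SE 0.29, adjusted p = 0.048), with the sixth smallest p of 16687 tested genes, of which 0.204% were called lower and 0.00599% higher. The call rested on the scale and filter, because the adjusted p was 0.0575 with a pseudocount of 0.1, 0.0676 with 0.01 and 0.234 without a filter on low values. Without either DMSO library GPR39 no longer reached 1 TPM in 2 libraries and was not tested.

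GPR39 shares 3297 bases at its 3′ end with LYPD1, a gene on the opposite strand, and whether the counting used strand was not given in the sources used here, so that reads of this stretch cannot be told apart. LYPD1 was at 9.10 and 7.00 TPM with DMSO and 2.06 and 5.64 TPM with I-BET151, a log2 difference of -0.996 (adjusted p = 0.401). The GPR39 level with I-BET151 was below that of every DMSO, hPSC, DE, PP2 and β-like library. The 4 ePP libraries, grown with I-BET151 but in another batch, ran from 0.0194 to 1.68 TPM, with replicate 1 of either passage near the I-BET151 libraries (0.0309 and 0.0194 TPM) and replicate 2 above them (0.885 and 1.68 TPM).

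The other 6 tested members were not called with I-BET151 in the main fit of batch 3, which left out the replicate number. With that number as a block, 4 members were called lower, namely GPR39, CASR, GIPR and SSTR3. CASR was at 3.14 and 2.00 TPM with DMSO and 0.00747 and 0.00479 TPM with I-BET151 (log2 difference -1.81, SE 0.30, adjusted p = 0.0917). GIPR was at 9.54 and 3.38 TPM with DMSO and 1.22 and 0.808 TPM with I-BET151 (log2 difference -1.76, SE 0.50, adjusted p = 0.205). These DMSO replicates differed widely for GIPR and less for CASR, and in both genes the groups did not overlap. Neither gene was settled by this fit, since GIPR was called without DMSO replicate 2 (adjusted p = 0.037), and CASR was called without I-BET151 replicate 2 (adjusted p = 0.0388) and in the pooled fit of all 10 replicated libraries (adjusted p = 0.00325).

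SSTR3 was at 2.30 and 1.15 TPM with DMSO and 0.0409 and 0.106 TPM with I-BET151 (log2 difference -1.31, SE 0.33, adjusted p = 0.165), and the pooled fit called it (adjusted p = 0.013). GLP1R was at 2.48 and 1.71 TPM against 0.340 and 0.784 TPM (log2 difference -0.99, SE 0.32, adjusted p = 0.251). Both groups of values were separate, as they were for GPR39, CASR and GIPR, and such separation downward held for 18% of all tested genes. These 5 members passed the filter only through their DMSO values. The remaining pair did not have lower values with the inhibitor. SSTR2 was at 1.93 and 0.986 TPM with DMSO and 2.23 and 3.06 TPM with I-BET151 (log2 difference 0.59, adjusted p = 0.488), a separation upward that 28.7% of genes had. ADRA2A values overlapped, with a log2 difference of 0.09 (adjusted p = 0.932) that turned to -0.08 without DMSO replicate 1 and to -0.18 without I-BET151 replicate 2. FFAR1, GPR119 and GCGR were not tested, and of these GCGR was at 1.32 and 0.151 TPM with DMSO and at 0.0710 and 0.105 TPM with I-BET151.

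Endocrine markers moved in the same comparison, with the sum of the 10 α cell markers at 1631 and 1859 TPM with DMSO and 148 and 250 TPM with I-BET151. Of these 10, 6 reached 1 TPM in each DMSO library and 5 in each I-BET151 library, GCG was at 0.144 and 0.249 TPM with DMSO, and it was at 9.21 TPM in I-BET151 replicate 1 and listed at 0 in replicate 2. The sum of the 13 β cell markers was 214 and 130 TPM with DMSO and 652 and 346 TPM with I-BET151. A few genes made up most of these sums. TTR, of the α list, was at 1049 and 1220 TPM with DMSO and 55.6 and 60.7 TPM with I-BET151. NKX6-1 was at 103 and 51.5 TPM against 446 and 208 TPM, and PDX1 at 110 and 74.4 TPM against 198 and 134 TPM. These 2 genes of the β list are progenitor markers too. The part of these cell markers in the receptor values was not tested.

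**Figure D4:**
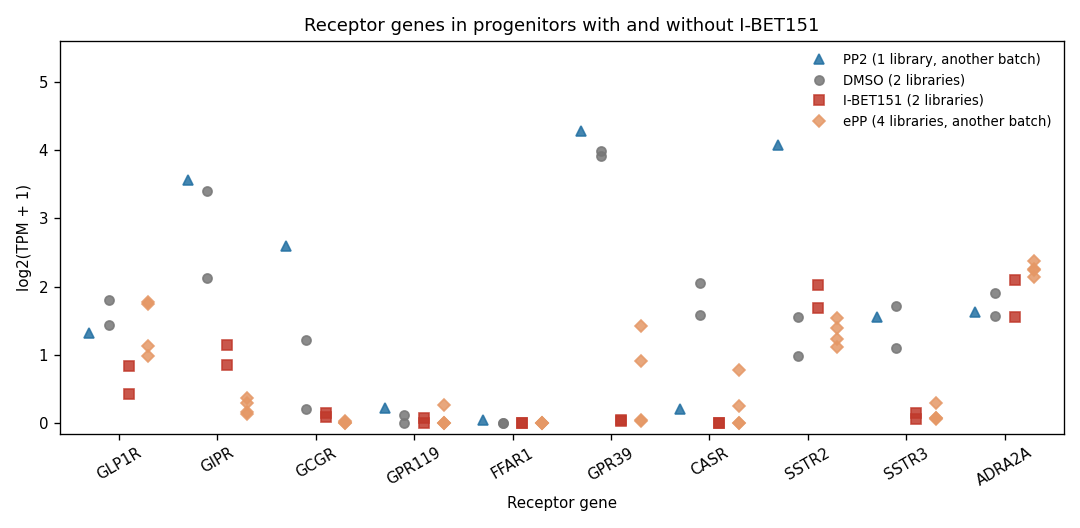
Levels of the receptor genes on the log2(TPM + 1) axis in PP2 (blue triangles, batch 1), DMSO (grey circles) and I-BET151 (red squares) progenitors of batch 3, and ePPs (orange diamonds, batch 2). GPR39 shows both DMSO circles near 4 and both I-BET151 squares near 0, and ADRA2A shows overlapping groups.

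The other genes of these pathways were followed in 7 lists with 146 genes. Between ePP-β and ePP, 114 were tested, of which 43 were called higher and 8 lower, and their median log2 difference was 0.44 against -0.03 over all tested genes. Over all tested genes 17.9% were called higher and 9.86% lower, shares to set beside each list count here and below. Of 40 other islet receptors 21 were tested, with 11 higher and 2 lower. FFAR2, GPR142, ADORA2A and SSTR1 were under 1 TPM in every ePP library and were tested only through their ePP-β values. FFAR2, a short-chain fatty acid receptor, rose from a mean of 0.0265 TPM in ePPs to 53.6 TPM in ePP-β (log2 difference 5.73, SE 0.15, adjusted p = 5.42e-06). GPR142, a receptor for aromatic amino acids, rose to 27.5 TPM (4.74), the adenosine receptor gene ADORA2A to 31.2 TPM (4.55), and the somatostatin receptor gene SSTR1 to 28.9 TPM (4.27). LGR4, an R-spondin receptor, fell from 157.5 to 47.8 TPM (-1.69), and the second receptor that fell, the purinergic receptor P2RY1, went from 4.85 to 0.639 TPM (-1.82) and is named because only 2 fell, a choice made after its values were seen.

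All 8 tested ligand genes of 10 were called higher, against 17.9% of all tested genes, and their median log2 difference was 4.92. None of the 8 reached 1 TPM in 2 ePP libraries, so they were tested only through their ePP-β values. Their count is therefore no support beyond the values of each gene. GCG was listed at 0 in all ePP libraries and had a mean of 13733 TPM in ePP-β (adjusted p = 1.06e-07). SST, which encodes the ligand of SSTR2 and SSTR3, rose from 0.0433 to 429 TPM (8.69, adjusted p = 2.59e-06), PYY to 133 TPM (6.59) and the ghrelin gene GHRL to 46.1 TPM (5.40). A ligand and its receptors were thus measured in the same bulk libraries, which does not place them in the same cells.

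Among 21 tested G protein subunits, 7 were called, all of them higher. They held GNG2 (log2 difference 6.59), GNG3 (4.79), GNAO1 (4.75), which encodes the α subunit of Go, and GNG4 (2.46). Among 16 tested genes of cAMP synthesis and breakdown, 5 were higher and 2 lower. Of the adenylyl cyclases, ADCY2 rose by 3.58 to 11.2 TPM, ADCY1 by 1.03 to 35.0 TPM, and ADCY8 was listed at 0 in ePPs and had 5.92 TPM in ePP-β (adjusted p = 2.95e-05), while ADCY3 fell by 1.501 and the phosphodiesterase PDE8A by 1.06. The 18 tested cAMP effectors and targets had 1 higher, PRKAR1A (1.07), and 2 lower, PRKAR2B (-1.44) and PER1 (-1.09), with a median log2 difference of -0.17.

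On the Gq side 4 of 10 tested genes were called, all higher, namely the phospholipases PLCB1 (4.14) and PLCB4 (2.62), the kinase PRKCE (2.59) and the calcium channel ITPR3 (1.43). All 20 receptor regulators were tested, and 7 were higher and 2 lower. RGS4, which speeds GTP hydrolysis on Gi and Gq, rose from 1.40 to 424 TPM (7.47, adjusted p = 2.59e-06), with RGS16 at 187 TPM (6.56), RGS9 at 31.7 TPM (4.92) and RAMP3 at 29.4 TPM (4.76). RGS5 fell by 2.41 and RAMP1 by 1.78. Many genes passed the filter only in ePP-β, as among the receptors, so the shares of the lists are descriptions.

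**Figure D5:**
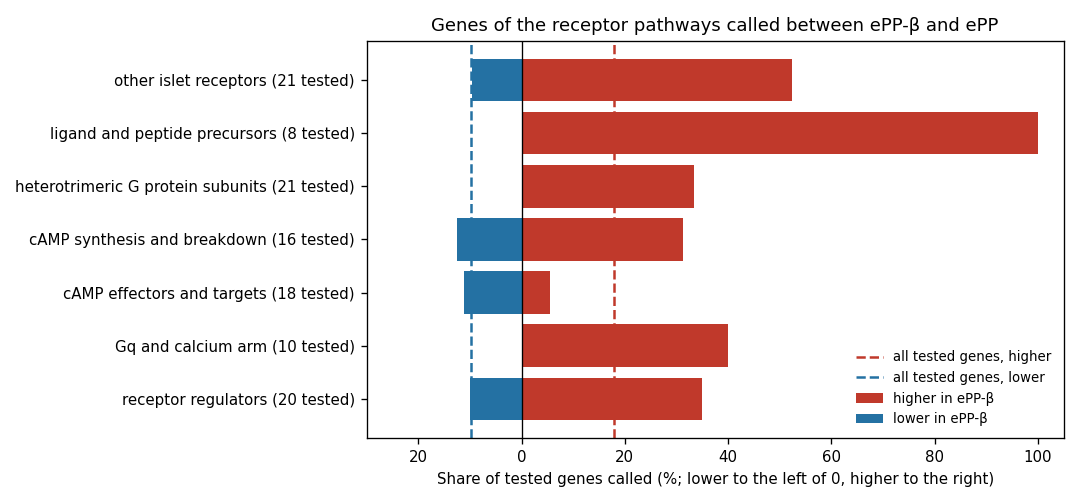
Share of the tested genes of each pathway list that was called between ePP-β and ePP, higher to the right of 0 and lower to the left, in percent, with dashed lines at the shares over all tested genes (17.9% higher and 9.86% lower). The 8 tested ligand genes, tested only through their ePP-β values, were all higher, and the 18 cAMP effectors lie below the dashed line for higher calls.

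In the other tested comparisons the main fits, which left out the replicate number, called 0 genes of these lists. With that number as a block, list genes were called with I-BET151, as counted below, so 0 calls there does not show that they stayed unchanged. Between the passages it called 0 of 81, with 12 at an unadjusted p under 0.05, where 23% of all tested genes were. With I-BET151 it called 0 of 92, with 22 at an unadjusted p under 0.05, where 15.2% of all tested genes were. The median log2 difference of the list genes was 0.08 between the passages against 0.13 over all genes, and 0.03 with I-BET151 against 0.16.

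The genes whose pattern was most like each member were found by Pearson's r of log2(TPM + 1) over the 14 libraries among 12775 protein-coding genes, as a description, since the points share a cell line, replicates and batches. GPR119 was most like ABCC8 (0.999), the sulfonylurea receptor subunit of the β cell potassium channel, PCSK2 and NEGR1. FFAR1 was most like FAM135B (0.999), CIBAR2 and DACH2, and SSTR3 like VCAM1 (0.995), MAB21L4 and SYT4. CASR followed TSPAN1 (0.981), SSTR2 followed SLITRK6 (0.964), ADRA2A followed SLC7A14 (0.966) and GLP1R followed PLEKHA1 (0.959). The 3 members that were highest in PP2 had other neighbours, RBP4 for GIPR (0.950), ITGA8 for GCGR (0.941) and ANG for GPR39 (0.945). Among the members themselves r was highest for GPR119 with FFAR1 (0.972) and lowest for ADRA2A with GCGR (-0.140).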

How the data were processed

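Total RNA was sequenced in 14 libraries. The authors aligned paired reads to hg38 with HISAT2 (2.1.0, per the labels), assembled transcripts with StringTie and deposited TPM per Ensembl gene, so the deposited TPM values carry no depth. The annotation release and the strand setting were not given in the sources used here. Of 60624 identifiers, 60370 matched GENCODE 44, from which symbols and positions were taken.

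Groups, batches and replicate numbers came from the sample labels. The members and pathway lists were chosen with earlier results of these data known. Values were tested as log2(TPM + 1) with limma 3.58.1 in R 4.3.3 (two-sided, moderated by eBayes with an intensity trend) within 1 batch per fit, after dropping genes that did not reach 1 TPM in 2 libraries of the fit. p-values were adjusted by Benjamini-Hochberg over all tested genes, and calls needed an adjusted p under 0.05 and a log2 difference beyond 1. A fold change on this scale understates that of low genes. Named were all members and, per list and direction, up to 4 called genes with the largest log2 difference and 5 TPM or more as the mean of the higher group. The fit was tested on simulated data. Alternatives were other pseudocounts, filters and scalings, a replicate block, a pooled fit, no trend, and leaving out each library. Tables and plots were made in Python 3.11.15 with pandas 2.3.3 and matplotlib 3.10.9.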

Additional observations from a re-analysis of the deposited data

Results flagged for a closer look

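GIPR and GPR39 were higher in ePP-β than in ePPs but not higher in SC-β than in PP2. The difference between the routes was not tested, since SC-β and PP2 had 1 library each in another batch than ePP and ePP-β. From PP2 to SC-β the log2(TPM + 1) difference of GIPR was -0.47, from 10.8 to 7.55 TPM, which was under 1 in size and near the median of -0.30 over all genes, so no change of GIPR is shown there, while both ePP-β libraries, at 2.31 and 7.99 TPM, exceeded all 4 ePP libraries, which were at or below 0.292 TPM. For GPR39 the difference from PP2 to SC-β was -1.10, from 18.4 to 8.07 TPM, while both ePP-β libraries, at 8.68 and 6.96 TPM, exceeded all 4 ePP libraries, which were at or below 1.68 TPM. The starting progenitors differed more between the routes than the β-like cells did in both genes.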

How the results depend on the processing

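The 9 members called higher in ePP-β kept that count under each scaling, with a pseudocount of 0.1, with the replicate block, without the trend and in a pooled fit of all 10 replicated libraries. The count was 8 with a pseudocount of 0.01, where GPR39 had an adjusted p of 0.0643, and 7 with a filter of 5 TPM, since fewer were tested. Leaving out 1 library gave 4 to 9 called, and 4 came without ePP-beta replicate 1 and also without ePP-beta replicate 2, because only 4 members then reached 1 TPM in 2 libraries. Median centring moved the median log2 difference of all genes from -0.03 to -0.17 in this comparison, and from 0.13 to -0.07 between the passages.

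With I-BET151, the 1 member called (GPR39) became 0 with a pseudocount of 0.1, 0 with 0.01 and 0 without a filter on low values, where GPR39 had log2 differences of -6.78, -8.41 and -3.90. The pooled fit of 10 libraries called 3, adding CASR (adjusted p = 0.00325) and SSTR3 (0.013). Leaving out 1 library gave 0 to 2 called: 0 without DMSO replicate 1, 1 without DMSO replicate 2, which was GIPR (adjusted p = 0.037), and 2 without I-BET151 replicate 2, which added CASR (0.0388). GPR39 log2 differences ranged from -3.91 to -3.89 without an I-BET151 library. Over the 11 to 13 alternatives of each gene the adjusted p ranged from 0.00325 to 0.264 for CASR, 0.013 to 0.322 for SSTR3, 0.0244 to 0.66 for GIPR and 1.66e-05 to 0.234 for GPR39. For ADRA2A the sign turned to -0.092 and -0.14 between the passages with median centring and quantile normalization, and leaving out 1 library gave -0.18 to 0.36 with I-BET151 (-0.08 without DMSO replicate 1). The cause of these changes was not tested, except that fewer genes were tested where a library or low genes were left out.

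Replicate numbers were shared by the groups, but only 2 pairs exist per comparison, so whether they mark paired cultures cannot be told. The main fits left the replicate number out. Deviations of same-numbered libraries correlated over genes with r of 0.68 for DMSO and I-BET151, -0.01 for ePP-P9 and ePP-P21, 0.03 for ePP-P9 and ePP-β and 0.04 for ePP-P21 and ePP-β. In batch 3, 78.1% of 16687 genes differed in the same direction between replicates 1 and 2 of both groups. Ribosomal protein genes held 19.1% (DMSO) and 15.6% (I-BET151) of TPM in replicate 1, and 26.4% and 26.3% in replicate 2. The main I-BET151 fit counted this shared difference as spread between libraries. Its cause was not tested. With the replicate block, I-BET151 against DMSO gave 4 members called lower (GPR39, adjusted p = 0.00362, CASR, 0.0155, GIPR, 0.0244, and SSTR3, 0.0375) and 12 list genes called, and the block left the other counts of members at 9 and 0.

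Over all genes, I-BET151 calls were 1 higher and 34 lower, 828 and 1466 with the block, 518 and 1155 in the pooled fit and 0 with either smaller pseudocount. Passage calls were 169 higher and 9 lower, 64 and 2 with the block and 0 with median centring. With 2 libraries a group, and depth unknown, low receptors cannot be told from absent ones.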

Other observations

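Several receptors that were not among the 10 members differed between β-like cells of the 2 origins, and they are named here after their values were seen, with no test because SC-β was 1 library of another batch. SSTR5, a somatostatin receptor, had 20.9 TPM in SC-β against 0.383 and 0.402 TPM in the ePP-β libraries. The α2 adrenergic receptor ADRA2C had 10.3 TPM in SC-β against 0.320 and 0.377 TPM, and the prostaglandin receptor PTGER3 had 81.2 TPM against 16.5 and 13.7 TPM. In the other direction the neuropeptide Y receptor NPY1R had 10.0 TPM in SC-β against 44.6 and 55.8 TPM. The melatonin receptor MTNR1B was listed at 0 in all 3 libraries.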
